A study of Rattus norvegicus with 12 samples.

Results

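The microRNAs described here are those of the Dlk1-Dio3 imprinted region of the rat, measured in serum by small RNA sequencing. They were taken as the rows of the deposited table that lie on the same chromosome and strand as miR-494-3p, with a start within 400 kb of its start. The rule gave 94 rows with 92 mature names, of the 836 rows and 752 names of the whole table, on the plus strand of chromosome 6 of rn6. Rows that share a name were summed, which touched miR-434-5p and miR-434-3p, each listed at a pair of positions. Of the 92 names, 47 were above 0 in at least 3 of the 12 libraries and are described, 16 were above 0 in fewer libraries, and 29 were at 0 throughout. Membership rests on coordinates alone, but the region was chosen with earlier results of these data known. The microRNA that sets the window, miR-494-3p, is itself among those that passed a test after caffeine.

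The serum came from male Sprague-Dawley rats (Jcl:SD), 7 weeks old, dosed once by mouth, and 12 libraries in 4 groups of 3 were analysed here. Control animals were given sterile distilled water, the vehicle. Caffeine was given at 180 mg/kg (CAF), and dextromethorphan, as its hydrobromide monohydrate, at 200 mg/kg (DEX). The combination (CAF+DEX) used the same doses, with the caffeine 1 h ahead of the other drug. Blood was drawn under anaesthesia 1 h after dextromethorphan, and RNA was isolated from 200 uL of serum. Caffeine blocks adenosine receptors, and dextromethorphan is an antitussive that blocks NMDA receptors. The design text gives 5 rats per group, and nothing ties a library to one animal. The p-values here therefore reflect how these libraries vary, which may be technical. Libraries are named as in the columns of the table, by group and number (ctrl1, CAF3, DEX2, CAFDEX6).

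The Dlk1-Dio3 region is imprinted: the protein genes Dlk1, Rtl1 and Dio3 are expressed from the paternal chromosome, and long noncoding RNAs from the maternal one. The microRNAs are cut from those maternal transcripts, which run in the order Meg3, the antisense transcript of Rtl1, Rian and Mirg. They are known for expression in placenta, embryo and brain, and in muscle precursors, and as a group they have low levels in most adult tissues.

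Mature sequences were matched by name to the RefSeq table of the GRCr8 build, which held 88 of the 92 names, each with the same length as in the deposited table. Shown are the 6 microRNAs that passed a test after caffeine, and miR-379-5p and miR-434-3p, the next most abundant after the leading 3. They are written 5′ to 3′ with the seed, bases 2 to 8, in capitals.
miR-382-5p: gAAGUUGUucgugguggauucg
miR-409a-3p: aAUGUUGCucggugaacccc
miR-134-5p: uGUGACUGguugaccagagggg
miR-485-3p: cAUACACGgcucuccucucuuc
miR-127-3p: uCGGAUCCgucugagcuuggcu
miR-494-3p: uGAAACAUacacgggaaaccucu
miR-379-5p: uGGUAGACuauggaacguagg
miR-434-3p: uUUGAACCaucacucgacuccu

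The seed is the stretch that pairs with target messenger RNAs, and no 2 of these 8 shared one. The 45 described microRNAs with a sequence held 45 distinct seeds. A seed was shared with a microRNA of the region that is not among the described ones for miR-376b-5p (shared with miR-376c-5p) and miR-381-3p (shared with miR-539-3p). Outside the region, miR-299a-5p, miR-299a-3p and miR-376c-3p shared theirs with miR-299b-5p, miR-299b-3p and miR-741-5p, among 693 mature sequences. The described microRNAs thus have the position in common and not the seed.

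Each hairpin gives up to 2 mature strands, named 5p and 3p. The hairpins of the leading pair show this, with the strand found in serum in capitals. In GRCr8 the miR-382 hairpin lies at chr6:134569944-134570023 and the miR-409a hairpin at chr6:134579185-134579261, both on the plus strand.
miR-382: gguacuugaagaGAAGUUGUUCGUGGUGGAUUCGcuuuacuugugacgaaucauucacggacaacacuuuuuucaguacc
miR-409a: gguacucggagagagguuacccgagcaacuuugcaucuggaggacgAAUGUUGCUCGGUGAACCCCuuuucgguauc

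Over the 12 libraries miR-382 gave 2644 reads of the 5p strand and 6 of the 3p strand, and miR-409a gave 1654 reads of the 3p strand and 10 of the 5p strand. Both strands were listed for 42 hairpins of the region, of which 39 had a read, with the 5p strand ahead in 15 and the 3p strand in 24. Of the 14 hairpins with at least 50 reads, 4 were led by the 5p strand and 10 by the 3p strand, and in 11 the leading strand held over 90% of the reads. Mixed strands were found for miR-485, with 312 reads of 3p and 85.5 of 5p, for miR-434, with 422 and 72, and for miR-299a, with 61 and 7.25. The miR-134 hairpin gave 1543 reads of 5p and 0 of 3p, which allows up to 3 reads of 3p at this depth (counting error only).

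Depth limited what could be seen of the region. Read numbers were recovered from the steps of the FPKM values, since the table gives FPKM (reads scaled to the length of the microRNA and to the library's assigned reads) and no counts. Assigned reads numbered 1304868 to 2625593 in control libraries, 1504963 to 1842796 after caffeine, 403913 to 895792 after dextromethorphan and 758290 to 1160717 after both drugs. For a length of 22 nucleotides, a single read equals 17.3 FPKM in ctrl3, the deepest library, and 113 FPKM in DEX3, the shallowest. The library kit adds molecular indices, but no source used here says whether reads were collapsed by them, so limits drawn from reads cover counting error only.

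The region as a whole was a small part of serum microRNA and took its largest shares after caffeine. Its 92 names took 0.0314%, 0.0195% and 0.0434% of the reads in ctrl1, ctrl3 and ctrl5, and 0.113%, 0.0896% and 0.0712% in CAF3, CAF4 and CAF5. After dextromethorphan the shares were 0.0415%, 0.0679% and 0.0572% in DEX1, DEX2 and DEX3, and after both drugs 0.0598%, 0.108% and 0.0399% in CAFDEX2, CAFDEX3 and CAFDEX6. All 3 caffeine libraries lay above all 3 controls, while DEX1 and CAFDEX6 lay below ctrl5, so the other treated groups overlapped the controls. The control mean was 0.0314% ± 0.0120 (SD, n = 3 in each group), that of caffeine 0.0911% ± 0.0207, that of dextromethorphan 0.0555% ± 0.0133 and that of both drugs 0.0692% ± 0.0349. The caffeine mean was 2.90 times that of control. These shares rest on 512 to 660 reads per control library, 1071 to 1732 after caffeine, 231 to 371.5 after dextromethorphan and 463.5 to 818 after both drugs. In serum, a larger number of releasing cells and more RNA released per cell cannot be told apart.

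**Figure D1:**
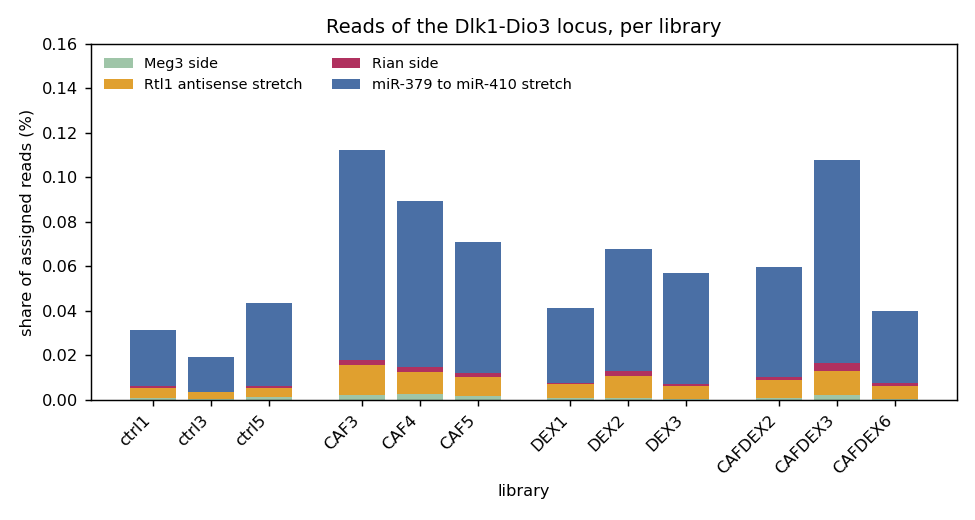
Share of all assigned reads (percent, vertical axis from 0) that fell on the 92 microRNAs of the Dlk1-Dio3 region, one bar per library, with the 4 stretches of the region stacked by colour (the stretch from miR-379 to miR-410 on top). The 3 caffeine libraries sit between 0.0712% and 0.113%, above the 3 controls at 0.0195% to 0.0434%, and CAFDEX3 at 0.108% stands apart from the other libraries given both drugs.

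A set of 4 microRNAs made up most of the region in every library: miR-382-5p, miR-409a-3p, miR-134-5p and miR-379-5p together held 63.8% to 72.2% of its reads. The total moved 5.78-fold between the lowest and the highest library, and the shares of the leading 3 within it by less. The strand miR-382-5p held 24.0% to 34.7% of the region's reads, miR-409a-3p 11.4% to 22.5%, miR-134-5p 15.0% to 20.1%, and miR-379-5p 2.09% to 7.88%. The ratio of miR-382-5p to miR-134-5p, whose hairpins are neighbours, stayed between 1.24 and 2.22 on the FPKM scale, which is per length. Within the region, miR-409a-3p held 18.6% to 22.5% after caffeine and 11.4% to 17.7% in control, so its share was higher in every caffeine library, while those of the other 3 overlapped between these groups. The closest pair was CAF5 and ctrl5, on 199 and 100 reads of miR-409a-3p, and CAFDEX6 held 18.8%. This difference in share was not tested. With these 4 left out, the rest of the region still took 0.00620% to 0.0332% of reads.

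**Figure D2:**
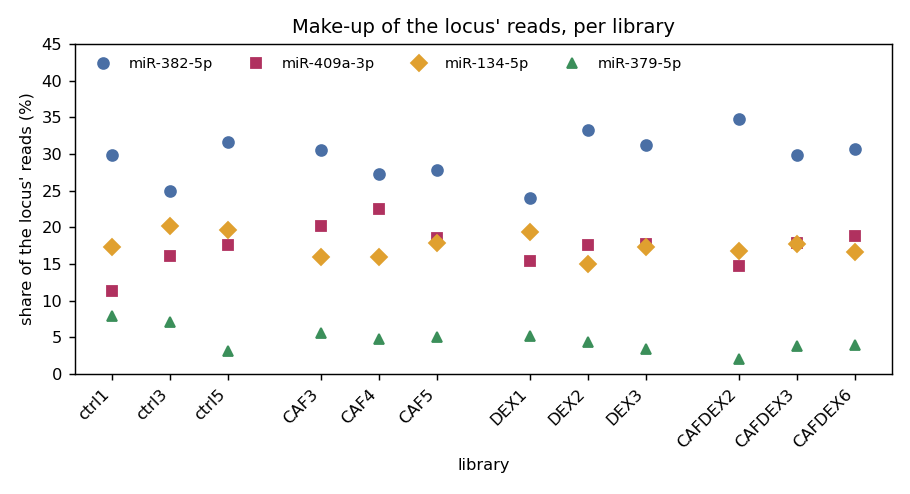
Share of the region's reads (percent, vertical axis) held by each of the 4 leading microRNAs, one symbol per microRNA, in each of the 12 libraries. The circles of miR-382-5p lie between 24.0% and 34.7%, on top in every library, and the squares of miR-409a-3p are higher in the 3 caffeine libraries (18.6% to 22.5%) than in the 3 controls (11.4% to 17.7%).

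In the order of mean level over the 12 libraries, miR-382-5p came first with 8410 FPKM (rank 116 of the 752 names), then miR-409a-3p with 5607 FPKM and miR-134-5p with 4800 FPKM. A step down followed to miR-379-5p with 1320 FPKM, miR-434-3p with 1232 FPKM, miR-127-3p with 1186 FPKM and miR-485-3p with 1016 FPKM, and then to miR-431 with 511 FPKM. The number of names above 0 in a library was 37 to 42 in control, 40 to 45 after caffeine, 27 to 35 after dextromethorphan and 31 to 43 after both drugs. At the depth of the shallowest library the numbers expected were 16.4 to 24.9 in control, 28.8 to 31.7 after caffeine, 25.6 to 30.0 after dextromethorphan and 21.2 to 35.7 after both. The numbers as counted overlapped between caffeine and control, while those at equal depth did not. At equal depth the dextromethorphan libraries also lay above the controls.

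Along the chromosome the described microRNAs fell into 2 clusters with 117.7 kb between miR-370-3p and miR-379-5p. The first holds the Meg3 side (chr6:133682975-133706532, 11 names, 6 described), the Rtl1 antisense stretch (chr6:133711444-133716830, 9 names, 8 described) and the Rian side with miR-341, miR-1188 and miR-370 (chr6:133733296-133739984, 5 names, 3 described). The second is the stretch from miR-379 to miR-410 (chr6:133857715-133898880, 67 names, 30 described), which held the 4 leading microRNAs. Levels differed within the second cluster: miR-382-5p starts 19.8 kb from miR-494-3p, which had far lower levels. How level relates to position was not tested. At one end of the region, miR-770-3p (chr6:133683010-133683026) ranged from 0 to 388 FPKM over the 12 libraries. At the other end, miR-369-3p (chr6:133893741-133893761), the last described name, was above 0 in 5 libraries, at 45.3 to 137 FPKM.

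**Figure D3:**
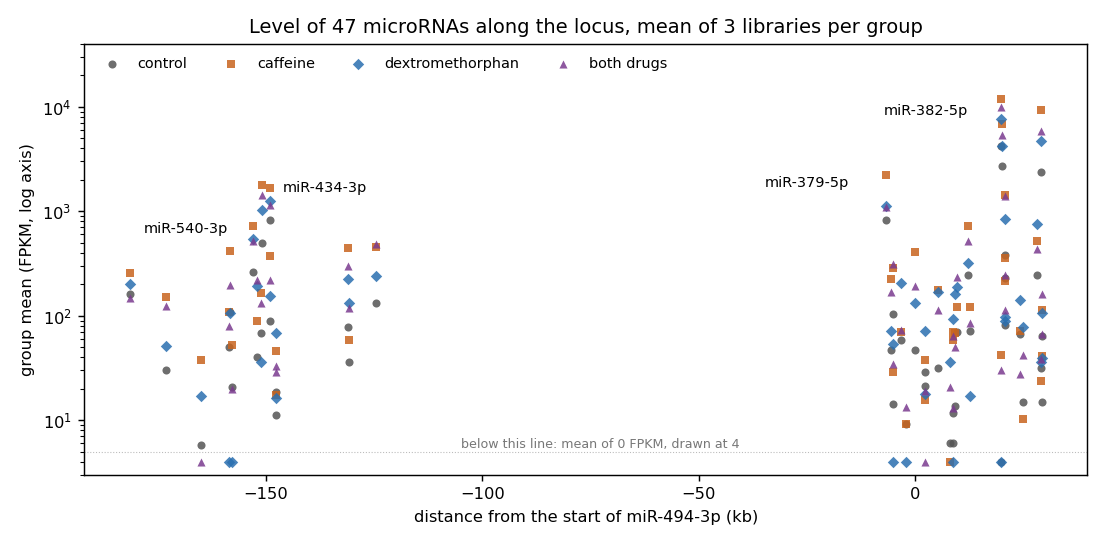
Mean level in each group (FPKM, log axis, mean of 3 libraries) of the 47 described microRNAs against the distance from the start of miR-494-3p (kb); means of 0 are drawn at 4. The caffeine squares lie highest for most of the abundant microRNAs in both clusters, with miR-382-5p at the top.

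For tests, values were compared as log2(FPKM + 40) with limma over all 4 groups, with p-values adjusted by Benjamini-Hochberg over 366 microRNAs of the table. These were the names with reads in 3 or more libraries whose mean reached 80 FPKM. Of the 47 described members 28 passed this filter, at means of 86.2 to 8410 FPKM, and 19 did not, at means of 7.96 to 77.1 FPKM and 3 to 26 reads in all. A few passed only through treated groups: without the caffeine libraries miR-673-5p and miR-127-5p would have failed, without the dextromethorphan libraries miR-1188-5p and miR-323-3p, and without those given both drugs miR-673-5p and miR-1188-5p. A fold change on this scale understates the change of low microRNAs. The comparisons with control share the same 3 control libraries.

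After caffeine alone, 6 of the 28 tested members rose and none fell, where 6.83% of all 366 tested microRNAs rose and 1.09% fell. The 6 were miR-409a-3p, miR-494-3p, miR-485-3p, miR-134-5p and miR-382-5p of the miR-379 to miR-410 stretch, and miR-127-3p of the Rtl1 antisense stretch. The median log2 fold change was 1.40 over the 28 members, from 0.07 to 2.35, beside 0.19 over all 366. It was above 0 for 28 of 28 members (27 under median-of-ratios scaling, 25 under quantile normalization) and for 60.9% of all tested. For 18 of the 28 members all 3 caffeine libraries lay above all 3 controls, as they did for 26.0% of all tested. The 28 include miR-673-5p and miR-127-5p, which passed the filter only with the caffeine libraries, and the 18 include miR-673-5p. Their positive changes are in part a product of that filter.

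The most abundant of the risers, miR-382-5p (chr6:133884190-133884211), had 4255, 2216 and 6235 FPKM in ctrl1, ctrl3 and ctrl5 and 15594, 11124 and 9001 FPKM in CAF3, CAF4 and CAF5. Every caffeine library was above every control, the closest pair being CAF5 and ctrl5. It rose 2.96-fold (95% interval 1.57 to 5.60, log2 fold change 1.57 ± 0.43 SE, limma adjusted p = 0.0419).

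Within 1 kb of it, miR-134-5p (chr6:133884554-133884575), a brain microRNA known to limit the size of dendritic spines through Limk1, had 2462, 1783 and 3867 FPKM in the controls and 8181, 6512 and 5769 FPKM after caffeine. The groups did not overlap. The rise was 2.60-fold (1.49 to 4.54, limma adjusted p = 0.0419).

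Near the end of the stretch, miR-409a-3p (chr6:133893465-133893484) had 1782, 1562 and 3832 FPKM in the controls and 11371, 10093 and 6611 FPKM after caffeine, on 75 to 100 and 199 to 372 reads. All caffeine libraries stood clear of the controls. It rose 4.08-fold (2.20 to 7.58, log2 fold change 2.03 ± 0.42 SE, limma adjusted p = 0.0137), the smallest adjusted p of the region in any comparison.

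The lowest riser by level was miR-494-3p (chr6:133864418-133864440), which had 41.3, 33.1 and 66.6 FPKM in the controls and 367, 543 and 318 FPKM after caffeine. Those are 2 reads in each control library and 13, 23 and 11 reads after caffeine, so the size of the rise rests on few reads. The fit gave 5.12-fold (2.35 to 11.1, limma adjusted p = 0.0141). With counts thinned to the depth of the shallowest library it did not pass (log2 fold change 2.73 ± 0.98 SE, limma adjusted p = 0.111). Its partner strand miR-494-5p was found in ctrl5 alone, with 2 reads.

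From the 3p arm of its hairpin, miR-485-3p (chr6:133885349-133885370) had 194, 260 and 697 FPKM in the controls and 1683, 1209 and 1420 FPKM after caffeine, with no overlap. It rose 3.93-fold (1.79 to 8.61, limma adjusted p = 0.0419). The other strand, miR-485-5p, known to act on the synaptic vesicle protein SV2A, had 270, 60.6 and 366 FPKM in the controls and 620, 321 and 121 FPKM after caffeine. These groups overlapped, and its log2 fold change was 0.53 (-0.07 without ctrl3) with an interval from -1.15 to 2.21, which did not pass. Whether the strands of miR-485 differ in their change was not tested.

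On the Rtl1 antisense stretch, miR-127-3p (chr6:133713486-133713507), which pairs fully with the Rtl1 messenger RNA on the opposite strand, had 281, 372 and 836 FPKM in the controls and 2245, 1751 and 1359 FPKM after caffeine. The lowest caffeine library was above the highest control. It rose 3.67-fold (1.69 to 7.99, limma adjusted p = 0.0419), on 13 to 24 reads per control library and 45 to 76 after caffeine. Divided reads enter this value, since the recovered counts were not whole in every library.

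**Figure D4:**
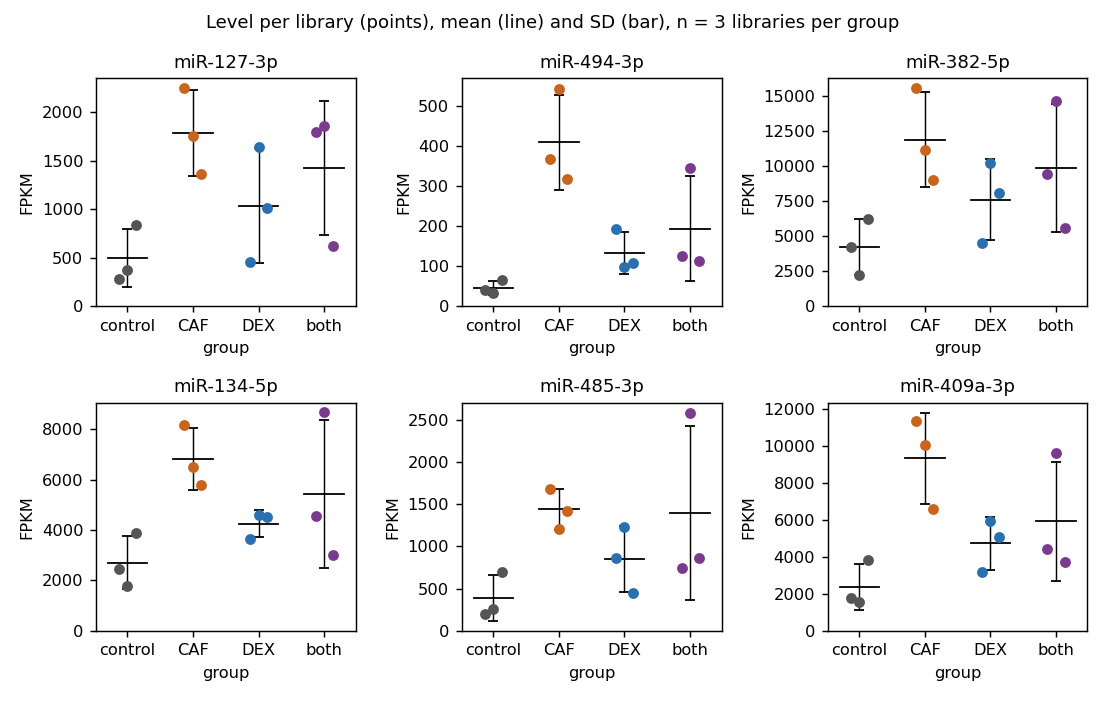
FPKM per library (linear axis from 0, one panel per microRNA) of the 6 microRNAs that passed after caffeine, with a line at each group mean and an error bar of 1 SD (n = 3). In all 6 panels the 3 caffeine points lie above the 3 control points, and among the libraries given both drugs CAFDEX3 is the highest.

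The remaining tested members did not pass after caffeine, and several had wide intervals. The first hairpin of the second cluster, miR-379-5p (chr6:133857715-133857735), had 1177, 653 and 657 FPKM in the controls and 2970, 2028 and 1709 FPKM after caffeine, without overlap, at a log2 fold change of 1.40 ± 0.43 SE (limma adjusted p = 0.0609). On the Rtl1 antisense stretch, miR-431 (chr6:133711444-133711464) had 453, 181 and 146 FPKM against 1021, 594 and 538 FPKM, also without overlap, at 1.42 ± 0.46 (limma adjusted p = 0.0630). For miR-434-3p (chr6:133715427-133715448 and a second copy) the values were 994, 848 and 662 FPKM against 1949, 1554 and 1540 FPKM, at 0.99 ± 0.41 (limma adjusted p = 0.152). These 3 were higher in every caffeine library than in any control, yet missed the threshold over 366 tests.

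Of the most abundant members of the smaller stretches, miR-370-3p (chr6:133739963-133739984) on the Rian side had 227, 34.6 and 139 FPKM in the controls and 591, 407 and 370 FPKM after caffeine (log2 fold change 1.67 ± 0.64, limma adjusted p = 0.127). On the Meg3 side, miR-540-3p (chr6:133706253-133706274) had 173, 51.9 and 105 FPKM against 325, 641 and 272 FPKM (1.59 ± 0.60, limma adjusted p = 0.120). Neither passed, although their groups did not overlap. At the start of the region, miR-770-3p had 280, 22.4 and 180 FPKM against 344, 223 and 195 FPKM, where the groups overlapped (0.81 ± 0.78, limma adjusted p = 0.563).

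By stretch, the log2 fold changes after caffeine ran from 0.81 to 1.59 over 3 tested members of the Meg3 side and from 0.69 to 1.88 over 6 of the Rtl1 antisense stretch. They ran from 0.56 to 2.21 over 3 of the Rian side and from 0.07 to 2.35 over 16 of the miR-379 to miR-410 stretch. The Meg3 side includes miR-673-5p and the Rtl1 antisense stretch miR-127-5p, which passed the filter only with the caffeine libraries. The 6 that passed were 1 of the 6 and 5 of the 16, and 0 passed on the Meg3 and Rian sides. Among the 19 described members below the filter, the caffeine mean was above the control mean for 14 and below it for 5, on 92 reads after caffeine and 49.8 in control in all. These 19 had no test, and their mean was above control for 14 also after both drugs and for 11 after dextromethorphan.

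The count of 6 after caffeine depended on single libraries. It was 0 without ctrl1 and 0 without ctrl3, 2 without CAF3, and 1 without CAF4 or without CAF5. It was 3 without DEX3 and 3 without CAFDEX2, whose libraries enter through the shared spread, and 6 or 7 without any other. The number that rose over all tested, 25, also fell, to 5 without ctrl1, 4 without ctrl3 and 13 without CAF3. It was 10 without CAF4, 6 without CAF5, 14 without DEX3 and 17 without CAFDEX2. In these fits the members' median was 1.16 to 1.53, with 27 or 28 of 28 above 0. The count of members was 2 under median-of-ratios scaling. This moved the median of all 366 from 0.19 to -0.04 and that of the 28 members to 1.18, with 27 of 28 above 0. That scaling also moved the split over all tested from 25 higher and 4 lower to 12 and 7.

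Other measures moved along with caffeine, and their part in the result was not tested except where stated. The summed striated muscle markers (7 of 7 listed, miR-208b-3p at 0 in all 12 libraries and miR-208a-3p in 10) took 0.0187% to 0.0550% of reads in control, 0.187% to 0.447% after caffeine, 0.0298% to 0.113% after dextromethorphan and 0.0637% to 0.167% after both. Liver markers (4 of 4, none at 0) took 1.88% to 5.12%, 6.93% to 11.1%, 6.87% to 15.8% and 7.81% to 10.5% in the same order, and lymphocyte markers (3 of 3, none at 0) 1.07% to 1.99%, 2.58% to 4.86%, 1.95% to 3.08% and 4.51% to 7.06%. Most muscle reads were miR-206-3p, nearly all liver reads miR-122-5p and most lymphocyte reads miR-150-5p, so these sums largely follow a single microRNA each. Brain markers went the other way, with 3.40% to 4.57% in control and 2.01% to 3.01% after caffeine (8 of 8 listed, nearly all of it miR-128-3p, and the neuronal miR-124-3p at 0 in all 12). After dextromethorphan they took 1.98% to 2.64% and after both drugs 1.20% to 2.52%.

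Platelet markers (5 of 5, none at 0, mostly miR-223-3p) took 6.26% to 6.94% in control, 5.48% to 6.72% after caffeine, 4.13% to 5.54% after dextromethorphan and 5.48% to 7.20% after both. Erythrocyte markers (5 of the 6 on the list, none at 0) took 11.3% to 13.5%, 10.2% to 10.8%, 11.7% to 13.8% and 11.1% to 14.0%. Nearly all of that was miR-16-5p and miR-92a-3p, while miR-451-5p, miR-144-3p and miR-144-5p gave 1116, 81.5 and 406 reads over the 12 libraries. The haemolysis index, the log2 ratio of miR-451-5p to miR-23a-3p, ran from -7.83 to -7.11 in control, -7.11 to -6.40 after caffeine, -6.47 to -5.13 after dextromethorphan and -6.44 to -5.67 after both. With this index as a covariate, 0 of the 28 members passed after caffeine. Over all tested, 5 then rose and 0 fell, in place of 25 and 4. The members' median log2 fold change was 1.35 in that fit, with 28 of 28 above 0.

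After dextromethorphan alone, 0 of the 28 members passed in either direction, where 11.5% of all tested microRNAs rose and 0.546% fell. That split of 42 higher and 2 lower over all tested was 15 and 19 under median-of-ratios scaling and 13 and 17 under quantile normalization. At an unadjusted p under 0.05 there were 3 of the 28 and 118 of the 366, and voom on the recovered counts also passed 0 of the 28. The members' median log2 fold change was 0.56 beside 0.47 over all tested, with 25 of 28 above 0 beside 67.5% of all. Under those scalings the members' median was 0.28 and 0.33 and the median over all 0.11 and 0.03, with 23 and 20 of 28 above 0. In 3 members all dextromethorphan libraries lay above all controls, against 26.0% of all tested. These include miR-494-3p and miR-369-5p, for which a single read in DEX2 or DEX3 already exceeds the highest control. For miR-369-5p the reads were 2, 1 and 1 after dextromethorphan and 4, 2 and 2 in control. The 28 include miR-1188-5p and miR-323-3p, which passed the filter only with the dextromethorphan libraries.

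The member with the smallest adjusted p was miR-409a-3p, which had 3182, 5974 and 5075 FPKM after dextromethorphan. DEX1 lay within the control range and the others above it. Its log2 fold change was 1.04 ± 0.42 (2.06-fold, limma adjusted p = 0.0985). Without ctrl5 the log2 fold change of miR-409a-3p was 1.44 and it passed (limma adjusted p = 0.0413). In that fit 40 of all tested rose and 8 fell, in place of 42 and 2. Without DEX1, 1 of the 28 passed, where 66 of all tested rose and 8 fell.

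The leading strand miR-382-5p had 4516, 10248 and 8103 FPKM after dextromethorphan, with DEX1 inside the control range (0.88 ± 0.43, limma adjusted p = 0.169). For miR-134-5p the values were 3653, 4611 and 4501 FPKM, DEX1 again below ctrl5 (0.71 ± 0.38, limma adjusted p = 0.189). The 3 libraries had 638, 537 and 472 FPKM of miR-431, all above the controls (1.10 ± 0.46, limma adjusted p = 0.110). None of these 3 passed.

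With few reads the remaining values scattered. The Rtl1 microRNA miR-127-3p had 457, 1640 and 1013 FPKM (0.97 ± 0.53, limma adjusted p = 0.195), and miR-485-3p had 863, 1230 and 450 FPKM on 17, 12 and 4 reads (1.15 ± 0.53, limma adjusted p = 0.149). For miR-494-3p the values were 194, 98.0 and 108 FPKM, above the controls, but they stand for 4, 1 and 1 reads, and a single read in DEX2 already exceeds the highest control (limma adjusted p = 0.195). The interval for miR-494-3p ran from -0.15 to 2.09 on the log2 scale.

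After both drugs, 1 of the 28 members rose and none fell, where 6.56% of all tested rose and 4.37% fell. That split of 24 higher and 16 lower was 19 and 25 under median-of-ratios scaling, 17 and 21 under quantile normalization and 12 and 27 when scaled without miR-191a-5p, an alternative chosen after seeing the data. The members' median log2 fold change was 0.93 beside 0.24 over all tested, with 25 of 28 above 0 beside 60.7% of all. All 3 libraries lay above all controls in 5 members and in 18.0% of all tested. The 28 include miR-673-5p and miR-1188-5p, which passed the filter only with the libraries given both drugs, and the 5 include miR-673-5p. Their positive changes are in part a product of that filter.

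The riser was miR-485-3p, with 743, 2578 and 862 FPKM in CAFDEX2, CAFDEX3 and CAFDEX6, above the 3 controls. It rose 3.29-fold (1.50 to 7.21, log2 fold change 1.72 ± 0.53, limma adjusted p = 0.0492). The call is close to the threshold and was lost when any 1 of ctrl1, ctrl3, CAF3, CAF4, CAF5, CAFDEX2 or CAFDEX3 was left out, and under median-of-ratios scaling.

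The other 5 that rose after caffeine had group means between those of caffeine and control after both drugs, without passing. For miR-382-5p the libraries had 9444, 14626 and 5561 FPKM (1.23 ± 0.43, limma adjusted p = 0.0787), and for miR-134-5p 4547, 8692 and 3015 FPKM (0.93 ± 0.38, limma adjusted p = 0.120). CAFDEX6 lay inside the control range of both. In miR-409a-3p they had 4425, 9627 and 3748 FPKM (1.28 ± 0.42, limma adjusted p = 0.0609), and in miR-127-3p 1793, 1858 and 627 FPKM (1.44 ± 0.53, limma adjusted p = 0.0886). The low miR-494-3p had 125, 344 and 112 FPKM on 3, 6 and 3 reads (1.31 ± 0.53, limma adjusted p = 0.116).

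In this group CAFDEX3 was the highest of the 3 libraries for each of these 6 microRNAs and also the shallowest of them, with 758290 reads. Without CAFDEX3 the members' median log2 fold change was 0.52 in place of 0.93 and 0 passed. Over all tested the median was then 0.08 in place of 0.24, with 6 higher in place of 24. Without CAFDEX6 the members' median was 1.39 and 5 passed, miR-382-5p, miR-134-5p, miR-409a-3p and miR-127-3p among them. Over all tested the median was then 0.36, with 37 higher. Without ctrl5, 4 members passed (31 higher over all tested), and without DEX1, 2 (36 higher). The result after both drugs thus turned on which library was left out, for the members and over all tested.

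**Figure D5:**
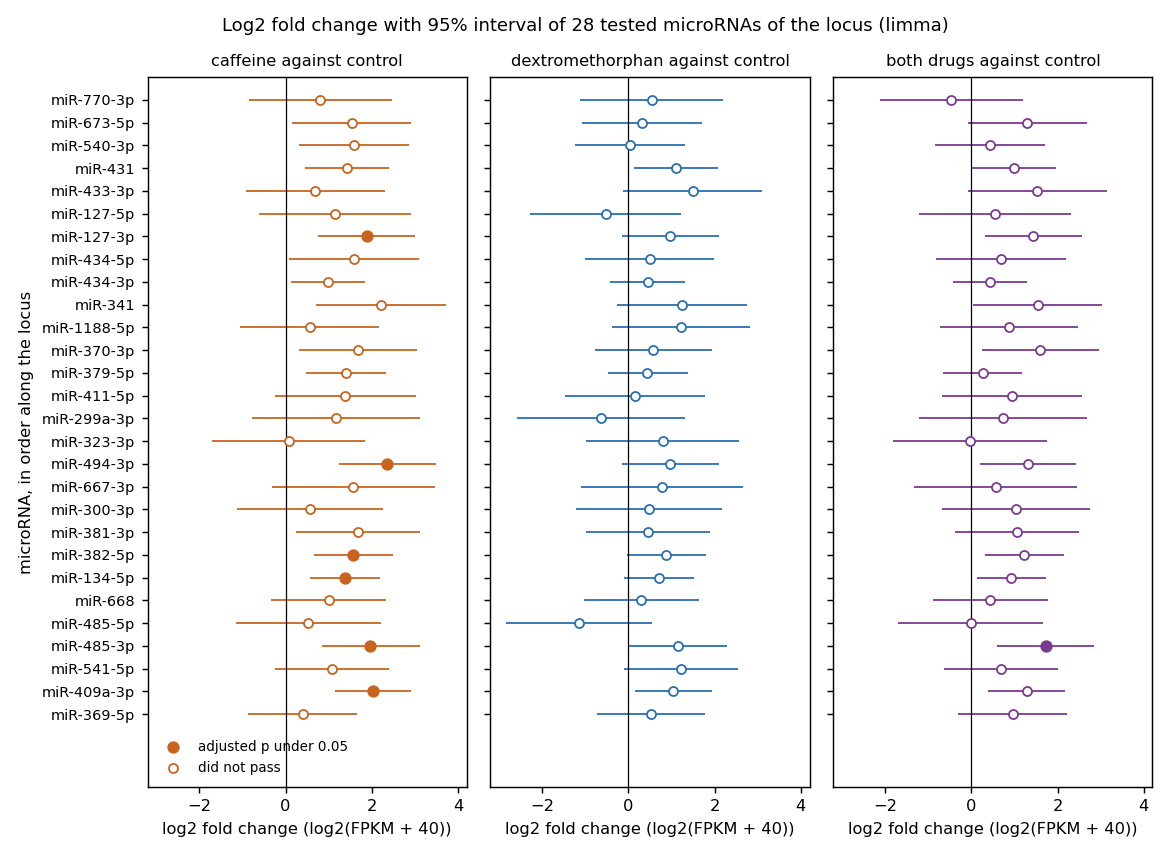
Log2 fold change against control (log2(FPKM + 40), limma) with 95% interval for the 28 tested microRNAs in their order along the chromosome, in 3 panels for caffeine, dextromethorphan and both drugs; filled points passed. All 28 caffeine estimates lie to the right of 0 (27 and 25 under the other scalings) and 6 are filled, none is filled for dextromethorphan, and miR-485-3p is filled for both drugs.

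Set directly against each other, the treated groups did not differ for any member by limma's adjusted p, and a p that misses the threshold does not show that they were alike. Of dextromethorphan against caffeine, 0 of 28 passed, where 2.46% of all tested were higher and 0 lower (9 and 0, or 9 and 2 under median-of-ratios scaling), and 4 members had an unadjusted p under 0.05 beside 55 of all. The median was -0.86 over the members and 0.12 over all tested, and in 6 members all dextromethorphan libraries lay below all caffeine ones (4.64% of all tested). The member with the smallest adjusted p was miR-494-3p (-1.38 ± 0.53, limma adjusted p = 0.243), followed by miR-540-3p, with 101, 102 and 113 FPKM after dextromethorphan (-1.55 ± 0.60, limma adjusted p = 0.244). For miR-540-3p those dextromethorphan values stand for 2, 1 and 1 reads, so their closeness reflects depth. The interval of miR-382-5p ran from 0.329-fold to 1.18-fold.

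Both drugs against caffeine gave 0 of 28, with 0 also over all tested (22 of the 366 and 1 of the 28 at an unadjusted p under 0.05). The median was -0.45 over the members and -0.11 over all. For miR-379-5p, which had 595, 1947 and 759 FPKM after both drugs, the log2 fold change was -1.14 ± 0.43 (limma adjusted p = 0.786). All 3 libraries given both drugs lay below all caffeine libraries in miR-434-3p alone, with 831, 1259 and 1371 FPKM (7.38% of all tested), at -0.55 ± 0.41 (limma adjusted p = 0.893).

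Both drugs against dextromethorphan likewise gave 0 of 28, where 0.273% of all tested were higher and 3.28% lower (1 and 12, or 6 and 11 under either other scaling), and 0 of the 28 and 59 of the 366 had an unadjusted p under 0.05. The median was 0.32 over the members and -0.24 over all. The Rian-side miR-370-3p, with 262, 899 and 313 FPKM after both drugs and 101, 512 and 113 FPKM after dextromethorphan, was at 1.02 ± 0.64 (limma adjusted p = 0.474), and its groups overlapped. Its dextromethorphan values stand for 2, 5 and 1 reads.

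The interaction contrast asks whether the log2 change after both drugs differs from the changes after each drug added together. No member passed, where 0 of all tested were higher and 4.64% lower, and 5 of the 28 and 78 of the 366 had an unadjusted p under 0.05. Its median was -1.12 over the members and -0.39 over all tested, with 3 of 28 above 0. Under median-of-ratios scaling these medians were -0.68 and 0.10, with 8 of all tested lower in place of 17, and under quantile normalization -0.58 and 0.14, with 7 lower. The smallest adjusted p was that of miR-409a-3p (-1.79 ± 0.59, limma adjusted p = 0.0945), followed by miR-494-3p (-2.01 ± 0.75, 0.138) and miR-379-5p (-1.59 ± 0.61, 0.161). Without CAFDEX3 these 3 passed, at -2.20, -2.44 and -2.08, and without ctrl5 miR-409a-3p passed, at -2.18. Over all tested, 38 were then lower without CAFDEX3 and 22 without ctrl5, in place of 17.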

How the data were processed

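The authors deposited FPKM per mature microRNA, 1 column per library. Build rn6, DESeq2 1.20.0, Subread 2.0.1, featureCounts, STAR 2.7.10a and cutadapt 3.7 are named per the submitters' processing notes, without their roles. The values scale to each library's assigned microRNA reads. Recovered counts in steps of 0.01 reads (tolerance 0.0001) accounted for 100% of values above 0, and 65.4% to 75.0% were whole, which gave the depth of each library.

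Rows sharing a name were summed. Log2(FPKM + 40) was fitted with limma 3.58.1 (R 4.3.3) over 4 groups, with a mean-variance trend (8 residual and 7.58 prior degrees of freedom), for the 366 names with reads in 3 or more libraries whose mean reached 80 FPKM. P-values are two-sided and adjusted by Benjamini-Hochberg over all 366, at a threshold of 0.05. The procedure was tested on simulated data with changes larger than the main estimate of any member here, so smaller changes were not covered. Figures were made with Python 3.11.15 (pandas 2.3.3, numpy 2.4.6, matplotlib 3.10.9).

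Column names gave each library's group; the numbers they carry differ from those of the titles. Members, marker lists and settings were chosen with earlier results of these data known. Named were the members that passed in any comparison, the 8 with the highest mean, both strands of miR-494, the first and last described member, and the most abundant of each stretch. The stretches of miR-370, miR-341, miR-1188 and miR-6331 were redrawn from the coordinates after these were seen; miR-485-5p, for the other strand of a member that passed, was chosen after its values were seen. The names miR-127-5p, miR-136-5p, miR-679 and miR-3072 had no entry in the sequence table.

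Alternatives covered pseudocounts of 10 and 100 FPKM, no filter, a mean of at least 400 FPKM, median-of-ratios and quantile scaling, the compared groups alone, no trend, voom on recovered counts, thinned counts, the haemolysis index and leaving out each library. The block of replicate numbers was not run.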

Additional observations from a re-analysis of the deposited data

How the results depend on the processing

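The count of members that passed was most open to the processing after caffeine, where it was 6. It was 2 with no filter on low values (where 11 of all 549 names rose) and 2 under median-of-ratios scaling (12 of 366). The count was also 2 under quantile normalization (11 of 366) and with no trend in the variance (9 of 366). It was 12 with the caffeine and control groups fitted alone, where 60 of all 366 rose, and 12 with voom on the recovered counts, where 43 rose. The count was 0 once the haemolysis index entered the model, where 5 of all 366 rose and the members' median was 1.35. The cause was not tested. Leaving out 1 library gave a count of 0 to 7, with 4 to 39 higher over all tested. For both drugs against control, where 1 passed, the count was 0 with a pseudocount of 100 FPKM, with no filter, under either scaling, with the groups alone, without the trend and with the haemolysis index. It was 2 with counts thinned to the shallowest library, and leaving out 1 library gave 0 to 5, with 3 to 37 higher over all tested. With the thinned counts miR-409a-3p and miR-127-3p passed, while miR-485-3p did not (limma adjusted p = 0.176). With alternatives added after seeing the data the count was 2 without DEX2 and DEX3 together and 0 when scaled without miR-191a-5p. Leaving out 1 library gave 0 to 1 for dextromethorphan against control and 0 to 3 for the interaction. Over all tested these fits gave 12 to 66 higher for dextromethorphan and 8 to 38 lower for the interaction. In the other 3 comparisons the count was 0 under each alternative run. Of 861 recomputed log2 fold changes of members the text names, 760 kept their direction and side of the threshold. The reversals were 2: miR-127-3p after dextromethorphan, at -0.43 once the haemolysis index entered the model, and miR-485-5p after caffeine, at -0.07 without ctrl3 (-0.07 to 1.07 over the libraries left out). Over the alternatives, miR-409a-3p passed after caffeine in 22 of 25 (log2 fold change 1.66 to 2.42) and miR-494-3p in 18 of 24. The number was 15 for miR-485-3p, 13 for miR-134-5p and 12 each for miR-382-5p and miR-127-3p. After both drugs, miR-485-3p passed in 9 of 25. After quantile normalization the members' median after caffeine was 1.10, with 25 of 28 above 0. No paired analysis was possible because the numbers in the columns do not match the replicate numbers in the titles. A value of 113 FPKM at 22 nucleotides stands for a single read in DEX3, so the low members rest on few reads after dextromethorphan.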
